A study of Mus musculus with 12 samples.

Results

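The transcripts of 8 surface proteins by which a B cell shows that it has been activated or speaks to T cells (Cd69, Cd80, Cd86, Cd83, Cd44, Icam1, Icosl and Cd24a) were followed in mouse splenic resting B cells that lacked or kept Runx1. The 8 genes were taken by symbol from the 37991 genes of the count table, in all 12 samples, and all 8 passed the filter on low counts, which left 13538 genes for testing. The cells came from mice 8 weeks of age. All of them carried the CD23-iCre transgene, which drives recombination from the transitional stage of B cell development onwards, and the controls carried this transgene alone (Cre-only). In the Runx1 c-k/o mice (CD23iCre/Runx1 ck/o) both Runx1 alleles also had LoxP sites around an exon that the Cre enzyme removes, so that Cre itself was shared by all groups while the deletion was targeted to B cells from that stage on. RNA was sequenced from resting cells (0 h) and from cells activated for 3 h with anti-IgM, which engages the BCR, and IL-4, a T cell cytokine. There were 3 biological replicates in each of the 4 groups, and the labels do not say whether mice were pooled. No group analysed here was cultured for 3 h without anti-IgM and IL-4, so a change from rest to 3 h holds culture and stimulus together, and these cannot be told apart.

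A resting B cell that binds Ag through its BCR must display it to a helper T cell and supply a second, costimulatory signal. CD80 and CD86 give this signal through CD28 on the T cell and are restrained by CTLA4, whereas ICOSL acts through the related receptor ICOS. ICAM1 is the ligand of the integrin LFA-1 and holds the pair of cells together, CD44 is a receptor for hyaluronan that serves adhesion and migration, and CD69 retains activated lymphocytes in lymphoid organs by opposing the sphingosine-1-phosphate receptor S1PR1. CD83 stabilizes CD86 and MHC class II on the cell surface by opposing the ubiquitin ligase MARCH1. CD24 is a small glycosylphosphatidylinositol-anchored protein that is high on immature B cells and is lost as B cells differentiate.

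Counts per sample added up to between 14442251 and 23641552. The level below which 3 counts would not be reached lay between 0.127 and 0.208 CPM, where normalized CPM means counts scaled to a common library size by edgeR's TMM method. Without molecular identifiers, such a floor speaks for counting error alone. The summed level of 10 B cell markers was 9446.5 to 10414.8 normalized CPM at rest and 2659.3 to 3245.4 at 3 h, with all 10 detected in every library. The 10 T cell markers together reached at most 7.95 normalized CPM and the 7 NK cell markers at most 15.9. Myeloid markers, 12 in all, summed to between 302 and 593 at rest and between 29.9 and 74 at 3 h. CPM is a share of a library's mRNA, so fewer cells of a type and less RNA per cell cannot be told apart, nor can a fall in 1 transcript and a gain of RNA in the cell as a whole.

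The targeted gene, Runx1, had 83.6, 81.8 and 86.7 normalized CPM in the resting Cre-only samples (replicates 1 to 3, the order used throughout), while the resting Runx1 c-k/o samples had 101, 95.7 and 103. Its counts cover all exons of the gene, those outside the deleted part included, and so do not check the deletion. Activation lowered it to 38.5, 37.0 and 34.9 in Cre-only B cells and to 47.3, 70.6 and 74.5 in Runx1 c-k/o B cells, and it was not below the control at either time. At 3 h it was higher in Runx1 c-k/o B cells, with a log2 fold change of 0.80 (edgeR adjusted p = 0.00769), and at rest the value was 0.25 (edgeR adjusted p = 0.548). Of the 6 Runx1 c-k/o libraries 3 stood apart from their group over the genes that responded to activation in Cre-only B cells by at least 1 log2 unit (2761 that rose and 3342 that fell). Replicate 2 of the resting group had a median log2 difference of 0.43 from the other 2 libraries over the rising genes. At 3 h, replicate 1 differed by 0.20 over the rising and -0.32 over the falling genes, and replicate 2 by -0.18 and 0.38. The 6 Cre-only libraries lay between -0.07 and 0.06 in both sets. Values without both Runx1 c-k/o libraries numbered 2 are given beside the main results of that genotype, though no label ties the libraries of that number together. As 3-h replicate 1 also stood apart, values without it are given for some of the changes on activation.

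**Figure D1:**
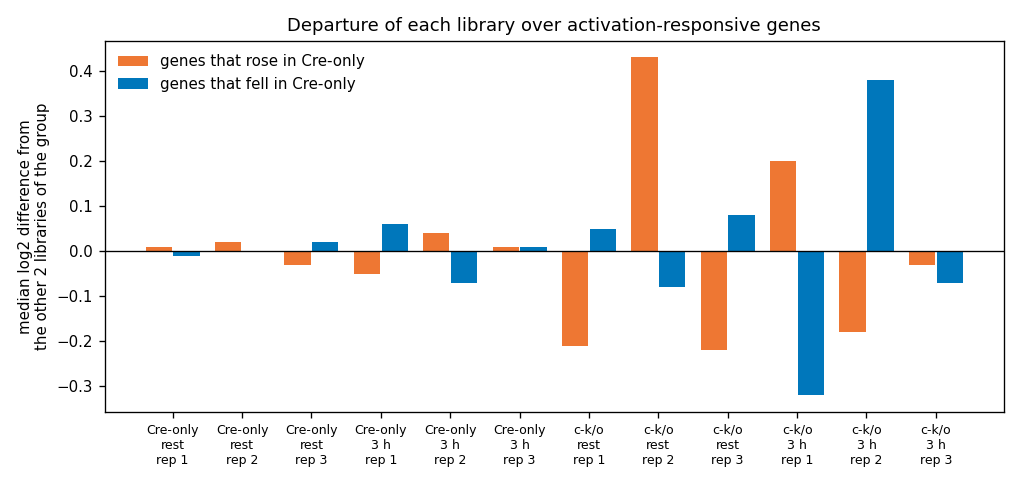
Each bar is the median log2 difference of a library from the other 2 libraries of its group, over the 2761 genes that rose (orange) and the 3342 that fell (blue) on activation in Cre-only B cells. The Cre-only bars stay between -0.07 and 0.06, while resting Runx1 c-k/o replicate 2 reaches 0.43 in rising genes and 3-h Runx1 c-k/o replicate 2 reaches 0.38 in falling genes.

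Promoter sequence was at hand for 4 of the 8 genes (RefSeq starts, build GRCm38.p6), and the 250 bases before each start are shown for all 4. Among the 8 genes Cd44 rose and Icosl fell most, Icam1 rose least of those that rose, and Cd80 is the partner of Cd86 that did not rise. The windows are chr2:102901666-102901915 on the minus strand for Cd44, chr9:21015690-21015939 on the plus strand for Icam1, chr16:38458683-38458932 on the plus strand for Cd80 and chr10:78069118-78069367 on the plus strand for Icosl. Each is written 5′ to 3′ along its gene, with capitals for the motif matches described next.
Cd44: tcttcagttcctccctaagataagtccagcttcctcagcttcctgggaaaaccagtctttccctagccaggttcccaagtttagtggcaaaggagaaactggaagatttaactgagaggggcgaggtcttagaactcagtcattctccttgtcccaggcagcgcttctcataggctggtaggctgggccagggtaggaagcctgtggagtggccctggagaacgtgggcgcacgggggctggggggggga
Icam1: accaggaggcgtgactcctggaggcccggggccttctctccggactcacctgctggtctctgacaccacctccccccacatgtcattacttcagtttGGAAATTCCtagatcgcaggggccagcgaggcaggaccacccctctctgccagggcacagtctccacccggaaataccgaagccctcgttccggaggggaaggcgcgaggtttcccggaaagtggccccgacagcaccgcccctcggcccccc
Cd80: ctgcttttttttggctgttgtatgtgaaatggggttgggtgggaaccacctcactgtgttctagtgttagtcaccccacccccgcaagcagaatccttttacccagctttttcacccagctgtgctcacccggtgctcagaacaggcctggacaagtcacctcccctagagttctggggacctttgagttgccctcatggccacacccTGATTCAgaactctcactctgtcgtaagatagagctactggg
Icosl: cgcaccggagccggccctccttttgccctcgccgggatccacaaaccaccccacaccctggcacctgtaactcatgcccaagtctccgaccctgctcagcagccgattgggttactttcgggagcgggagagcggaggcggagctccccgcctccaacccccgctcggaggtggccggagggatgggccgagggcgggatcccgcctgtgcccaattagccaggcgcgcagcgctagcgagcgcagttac
The RUNX core was searched as TGTGGT and as TGCGGT on both strands, and neither was found in any of the 4 windows. Over all 32851 promoter windows of this length, 14% held TGTGGT and 5.1% held TGCGGT. An NF-κB type sequence, searched as GGAANTTCC, was found in Icam1 alone, as GGAAATTCC from 153 to 145 bases before the start. Of all windows 0.813% held this form. An AP-1 sequence, TGANTCA, was found in Cd80 alone, as TGATTCA from 42 to 36 bases before the start, against 6.75% of all windows. The GGAANTTCC and TGANTCA forms are their own reverse complements, so each match counts once. A match describes these letters, and its absence says nothing of binding outside these windows.

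Comparison of 3 h with rest in Cre-only B cells asked how these markers respond to BCR and IL-4 stimulation in control cells. Of the 8 genes, 4 rose (Cd44, Cd86, Cd83 and Icam1) and 3 fell (Icosl, Cd24a and Cd69) at an adjusted p under 0.05 (quasi-likelihood test of edgeR, Benjamini-Hochberg over all tested genes). Over all tested genes 38.6% rose and 36.4% fell, so a call on activation was common in the transcriptome as a whole. The median log2 fold change was 0.28 over the 8 genes and 0.03 over all genes. In size the changes of the 7 genes ran from a 1.29-fold fall of Cd69 to a 6.51-fold rise of Cd44 and a 93.7-fold fall of Icosl. Sizes depended on whether a factor of unwanted variation, estimated from replicates (RUVs), was in the fit. With 1 such factor in edgeR the log2 fold change of Icosl was -5.19 in place of -6.55, that of Cd86 1.65 in place of 2.39, that of Cd83 0.78 in place of 1.29 and that of Cd69 -0.82 in place of -0.36.

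Levels per kilobase of exon, on the normalized CPM scale, separated the 8 genes at rest in Cre-only B cells. Cd83 (426 ± 43, SD, n = 3), Cd69 (425 ± 21) and Cd24a (389 ± 40.4) were the highest and did not differ beyond their spread. Icosl followed at 93.4 ± 9.17. Cd44 (17 ± 0.33), Icam1 (16.6 ± 0.94) and Cd86 (15.8 ± 0.286) formed a narrow group in which each neighbour lay within the spread of the next, and Cd80 was lowest at 1.05 ± 0.19. After 3 h the order was Cd83 (1042.4 ± 94.4), Cd69 (330 ± 29.7), Cd44 (111 ± 2.04), Cd86 (82.8 ± 12.4), Cd24a (49.2 ± 1.23), Icam1 (25.6 ± 4.34), Cd80 (1.01 ± 0.209) and Icosl (1 ± 0.131). Of the neighbours in this order, Cd80 and Icosl alone lay within each other's spread. The change put Cd44 and Cd86 above Cd24a and left Icosl level with Cd80.

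**Figure D2:**
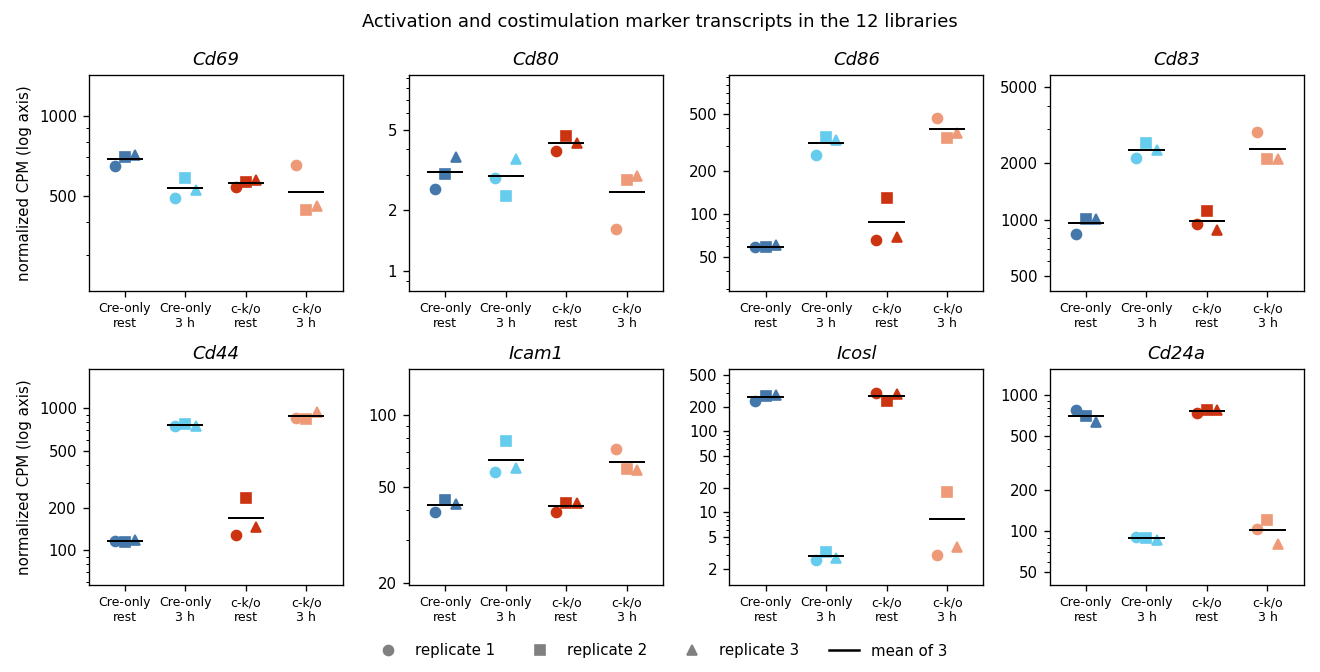
Normalized CPM on a log axis of the 8 genes in the 12 libraries, with a symbol for each replicate and a line at the mean of the 3 replicates. Cd86, Cd83, Cd44 and Icam1 sit higher at 3 h than at rest in both genotypes, and Icosl and Cd24a sit lower. Cd69 is lower in Cre-only and overlaps in Runx1 c-k/o B cells, whereas Cd80 overlaps in Cre-only and is lower in Runx1 c-k/o B cells.

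The pair of B7 genes, which encode the ligands of CD28, behaved differently. Cd86 (ENSMUSG00000022901, chromosome 16 of mm9 from 36603955 to 36666167, minus strand) was at 59.2, 58.8 and 60.8 normalized CPM in resting Cre-only B cells and at 259, 347 and 330 after 3 h. All 3-h samples lay far above all resting samples. The log2 fold change was 2.39 (standard error (SE) 0.236, edgeR adjusted p = 1.66e-06), a 5.23-fold rise. Cd80 (ENSMUSG00000075122, chromosome 16 from 38459013 to 38495821, plus strand) was at 2.55, 3.02 and 3.66 at rest and at 2.89, 2.35 and 3.57 at 3 h, on 36 to 67 counts per library. Its groups overlapped fully. Its log2 fold change was -0.06 (95% interval of the single gene, unadjusted, -0.58 to 0.46, edgeR adjusted p = 0.83), which leaves room for changes within these limits. Per kilobase of exon, the level of Cd80 at rest was 1.05 normalized CPM, above 20.4% of the tested genes, and that of Cd86 was 15.8, above 73.1%.

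Cd83 (ENSMUSG00000015396, chromosome 13 from 43880476 to 43898499, plus strand), which keeps CD86 at the surface, was among the most abundant of these transcripts. In Cre-only B cells it went from 842, 1011.9 and 1006.1 normalized CPM at rest to 2116.6, 2538.9 and 2342.9 at 3 h. Every 3-h sample was above every resting sample, and the log2 fold change was 1.29 (SE 0.155, edgeR adjusted p = 8.86e-06). Per kilobase its level at rest, 426 normalized CPM, was already above 99.2% of the tested genes, and at 3 h it was 1042.4 and above 99.7%. March1, the ubiquitin ligase that CD83 opposes, fell with a log2 fold change of -4.88 (edgeR adjusted p = 1.55e-07), and its relative March8 had 0.00. This pair was picked from its list for the link to CD83 after its values had been seen.

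Of the adhesion receptors, Cd44 (ENSMUSG00000005087, chromosome 2 from 102651298 to 102741822, minus strand) had close replicates. It was at 116, 115 and 119 normalized CPM in resting Cre-only B cells and at 749, 775 and 754 after 3 h. The groups lay far apart, and each had a small spread, with coefficients of variation of 1.94% and 1.84%. The fitted log2 fold change of 2.70 (SE 0.181, edgeR adjusted p = 7.5e-08) was the largest rise among the 8 genes. The counts sum over its 14 annotated transcripts, so variant exons were not separated here, and a U6 snRNA gene overlaps it on the other strand. Icam1 (ENSMUSG00000037405, chromosome 9 from 20820404 to 20833241, plus strand) was at 39.5, 44.2 and 42.7 normalized CPM at rest and at 57.7, 77.8 and 59.9 at 3 h. The 3-h samples were all higher, with replicate 2 above the other two. The log2 fold change was 0.63 (SE 0.123, edgeR adjusted p = 0.000524). With a RUVs factor it was 0.35, and the call was lost (edgeR adjusted p = 0.0662).

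Icosl (ENSMUSG00000000732, chromosome 10 from 77532105 to 77546000, plus strand), the ligand of ICOS, fell most of the 8 genes. Its resting level in Cre-only B cells was 236, 278 and 283 normalized CPM, and after 3 h 2.55, 3.27 and 2.74 remained, on 59, 50 and 43 counts. No value at 3 h came near a resting value. Its log2 fold change was -6.55 (SE 0.561, edgeR adjusted p = 4.94e-07). Per kilobase the level of Icosl dropped from 93.4, above 96.5% of the tested genes, to 1, above 24%. The 12 myeloid markers fell in the same samples, from a summed 351 to 445 normalized CPM at rest to 29.9 to 40.5 at 3 h, and their part in the fall of Icosl was not tested.

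Cd24a (ENSMUSG00000047139, chromosome 10 from 43298975 to 43304068, plus strand) also fell. It was at 780, 700 and 634 normalized CPM in resting Cre-only B cells and at 90.7, 90.1 and 86.6 at 3 h, without any overlap. The fitted log2 fold change was -2.98 (SE 0.14, edgeR adjusted p = 1.32e-08), a 7.91-fold fall, and the 3-h replicates had a coefficient of variation of 2.51%. Intronless copies of this gene elsewhere in the genome could take or lend reads, which was not tested.

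Cd69 (ENSMUSG00000030156, chromosome 6 from 129217342 to 129225387, minus strand), whose protein is a classical early activation antigen, did not rise at this time. Its transcript was abundant before activation, at 650, 702 and 714 normalized CPM in resting Cre-only B cells, and per kilobase this level (425) was above 99.2% of the tested genes. At 3 h it was at 491, 586 and 529. The 3-h samples all lay below the resting samples, by a log2 fold change of -0.36 (SE 0.14, edgeR adjusted p = 0.0326). The call and its size depended on the fit. With the replicate number as a block over all groups, the log2 fold change was again -0.36 with an edgeR adjusted p of 0.0534. A block within each genotype gave -0.37 (edgeR adjusted p = 0.0547). Without replicate 2 or 3 of the resting cells or replicate 1 or 3 of the 3-h cells the edgeR adjusted p lay between 0.0833 and 0.123. With a RUVs factor the fall was larger and passed, at -0.82 in edgeR (adjusted p = 7.43e-05) and -0.93 in DESeq2 (adjusted p = 7.67e-09). S1pr1, the receptor that CD69 opposes, fell with a log2 fold change of -2.12 (edgeR adjusted p = 2.26e-08).

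The same comparison within Runx1 c-k/o B cells gave 4 genes that rose and 3 that fell, against 37.7% and 36.6% of all tested genes. The same 4 genes rose (Cd86, Cd83, Cd44 and Icam1) and Icosl and Cd24a fell again, whereas the third gene that fell was Cd80 instead of Cd69. The median log2 fold change was 0.25 over the 8 genes and 0.00 over all genes.

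**Figure D3:**
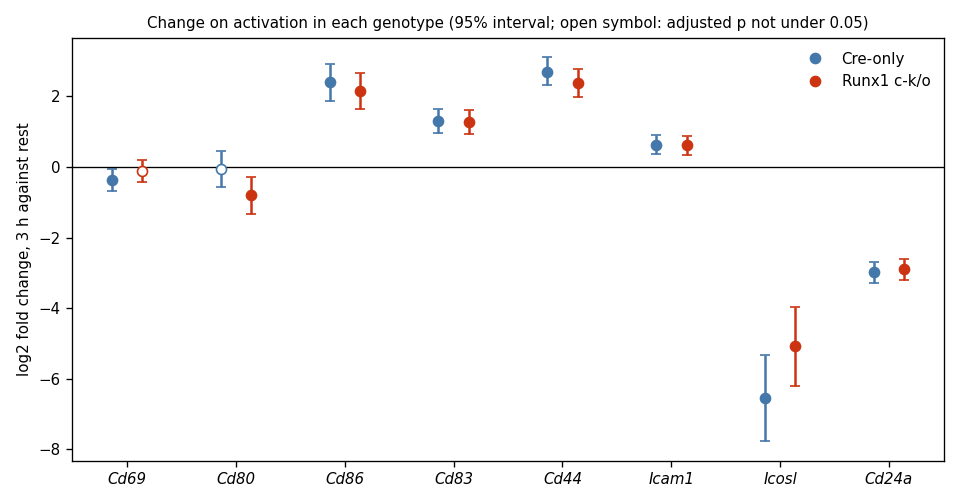
Log2 fold change from rest to 3 h for the 8 genes in Cre-only (blue) and Runx1 c-k/o B cells (red), with 95% intervals of the single gene, unadjusted. Open symbols mark Cd69 in Runx1 c-k/o and Cd80 in Cre-only B cells, whose adjusted p was not under 0.05. The intervals of both genotypes overlap for all 8 genes.

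Cd86 was at 66.7, 130 and 70.0 normalized CPM in resting Runx1 c-k/o B cells and at 468, 340 and 369 at 3 h. Replicate 2 was the high resting sample, yet all 3-h samples stayed above it. The log2 fold change was 2.14 (SE 0.233, edgeR adjusted p = 4.18e-06), and without both libraries numbered 2 it was 2.62, against 1.42 with a RUVs factor. Without 3-h replicate 1 it was 1.99. Cd80 was at 3.92, 4.65 and 4.31 at rest and at 1.61, 2.82 and 2.94 at 3 h, on 25 to 72 counts. Here the groups separated, and the log2 fold change was -0.80 (SE 0.24, edgeR adjusted p = 0.0093), or -0.83 without both libraries numbered 2 and -0.58 without 3-h replicate 1. With a RUVs factor it was -0.28 and no longer passed (edgeR adjusted p = 0.535).

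Cd83 was at 944, 1106.6 and 882 normalized CPM at rest and at 2908.5, 2080.8 and 2079.4 at 3 h in Runx1 c-k/o B cells. Replicate 1 was the highest of the activated samples, and no resting sample reached the lowest of them. Its log2 fold change was 1.27 (SE 0.155, edgeR adjusted p = 1.08e-05), 1.46 without both libraries numbered 2, 1.08 without 3-h replicate 1 and 0.73 with a RUVs factor.

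Cd44 was at 129, 232 and 147 normalized CPM at rest and at 846, 839 and 945 at 3 h. As with Cd86, replicate 2 was the high resting sample and remained well below the activated ones. The fitted log2 fold change was 2.37 (SE 0.178, edgeR adjusted p = 2.15e-07), 2.70 without both libraries numbered 2 and 2.39 without 3-h replicate 1. Icam1 was at 39.2, 42.9 and 42.9 at rest and at 72.3, 59.6 and 58.9 at 3 h, with no overlap. Its log2 fold change was 0.61 (SE 0.124, edgeR adjusted p = 0.000694). Without both libraries numbered 2 it was 0.68, without 3-h replicate 1 it was 0.50, and with a RUVs factor it was 0.32 (edgeR adjusted p = 0.103).

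Icosl was at 298, 239 and 287 normalized CPM in resting Runx1 c-k/o B cells and at 2.96, 17.9 and 3.71 at 3 h. Replicate 2, on 273 counts against 46 and 63, was the high activated sample and was still far below every resting sample. The log2 fold change was -5.08 (SE 0.509, edgeR adjusted p = 2.07e-06), a 33.8-fold fall. Without 3-h replicate 2 it was -6.35 (edgeR adjusted p = 1.27e-09), and without both libraries numbered 2 it was -6.44, while a RUVs factor gave -3.84. Myeloid markers in that 3-h library summed to 74 normalized CPM, against 37.8 and 33.3 in the other two, and their part in its Icosl level was not tested. Cd24a was at 742, 779 and 771 at rest and at 104, 121 and 81.3 at 3 h, far below. Its log2 fold change was -2.90 (SE 0.139, edgeR adjusted p = 2.11e-08), and -3.02 without both libraries numbered 2.

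Cd69 was at 542, 564 and 573 normalized CPM in resting Runx1 c-k/o B cells and at 656, 442 and 458 at 3 h. Replicate 1 of the activated cells lay above and the other two below all resting samples. The fitted log2 fold change was -0.11 (95% interval -0.42 to 0.19, edgeR adjusted p = 0.49). The value turned on the libraries used. Without 3-h replicate 1 it was -0.33 and passed the test (edgeR adjusted p = 0.00492), whereas without 3-h replicate 2 it was 0.00 (edgeR adjusted p = 0.986), without 3-h replicate 3 -0.02 (edgeR adjusted p = 0.916) and without both libraries numbered 2 0.01 (edgeR adjusted p = 0.97). With a RUVs factor it was -0.61 (edgeR adjusted p = 0.00159).

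The difference between genotypes in the change on activation, tested as an interaction, passed the threshold in 0 of the 8 genes and in 0.0813% of all tested genes by edgeR, and in 0 of the 8 by DESeq2. At an unadjusted p under 0.05 it was 1 of the 8 genes, Cd80, and 686 of all 13538. The interaction for Cd80 was -0.74 on the log2 scale (95% interval -1.48 to -0.00, edgeR adjusted p = 0.977), so the call of Cd80 in one genotype and not in the other is not shown to be a difference between them. For Icosl it was 1.47 (95% interval -0.02 to 2.97, edgeR adjusted p = 0.978), which became 0.19 without 3-h Runx1 c-k/o replicate 2. For Cd69 it was 0.25 (95% interval -0.18 to 0.68). In the other 5 genes the interaction lay between -0.33 for Cd44 and 0.08 for Cd24a.

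Comparison of the genotypes at rest asked whether loss of Runx1 had already changed these markers before stimulation. The test called 0 of the 8 genes, against 1.49% of all tested genes, and DESeq2 with its Wald test also called 0. At an unadjusted p under 0.05, 2 of the 8 genes passed (Cd86 and Cd44), and 1496 of all 13538. The genotypes did not overlap in 4 of the 8 genes, against 23.7% of all tested genes. Cd86, Cd44 and Cd80 were the 3 genes higher in Runx1 c-k/o B cells by this measure, and Cd69 was the gene that was lower.

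For Cd44 the Runx1 c-k/o values of 129, 232 and 147 normalized CPM lay above the 116, 115 and 119 of Cre-only B cells, with replicate 2 the farthest. The log2 fold change was 0.54 (95% interval 0.17 to 0.91, edgeR adjusted p = 0.213). For Cd86 it was 0.58 (95% interval 0.08 to 1.07, edgeR adjusted p = 0.345), and again replicate 2, at 130, carried most of the difference. Without both Runx1 c-k/o libraries numbered 2 the log2 fold change was 0.25 for Cd44 and 0.20 for Cd86. The resting library numbered 2 had also been the one with higher levels of the genes that rise on activation, by a median of 0.43, and its summed myeloid markers were at 593 normalized CPM against 302 and 479. The part of either in the levels of Cd44 and Cd86 was not tested.

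Cd80 was at 3.92, 4.65 and 4.31 normalized CPM in resting Runx1 c-k/o against 2.55, 3.02 and 3.66 in resting Cre-only B cells. The groups separated narrowly on 53 to 72 counts, with a log2 fold change of 0.49 (95% interval -0.02 to 0.99, edgeR adjusted p = 0.475), and 0.43 without both libraries numbered 2. Cd69 had the reverse order, 542, 564 and 573 in Runx1 c-k/o against 650, 702 and 714 in Cre-only B cells. Its replicates were close and did not overlap, and the log2 fold change was -0.30 both with (95% interval -0.60 to 0.01, edgeR adjusted p = 0.464) and without the libraries numbered 2. With a RUVs factor Cd69 passed, at -0.37 (edgeR adjusted p = 0.0175). Cd83, Icam1, Icosl and Cd24a overlapped between genotypes at rest, with log2 fold changes of 0.04, -0.02, 0.05 and 0.12. The sums of B cell markers and of B cell subset markers did not overlap between the same samples. The 10 B cell markers summed to 10186.0 to 10414.8 normalized CPM in resting Runx1 c-k/o against 9446.5 to 9774.1 in resting Cre-only samples. Of these 10, edgeR and DESeq2 called 0 between genotypes at rest. The 7 marginal zone B cell markers summed to 1841.5 to 2010.5 normalized CPM in resting Runx1 c-k/o against 1323.0 to 1652.9 in resting Cre-only samples, and the 5 transitional B cell markers to 103 to 121 against 126 to 156, with no marginal zone marker and at most 1 transitional marker at 0. Most of the marginal zone sum was Cr2, with a mean of 1317.7 against 945 normalized CPM. Mzb1 was at 183 against 132, S1pr3 at 34.4 against 22.7, Cd9 at 31 against 21.2 and Cd1d1 at 73 against 68.7. Myof was at 87.2 against 86.3, and Dtx1 was lower, at 194 against 211. By edgeR 0 of the 7 marginal zone markers passed between genotypes at rest, 4 had an unadjusted p under 0.05, and DESeq2 called 1. Of the 5 transitional markers 4 were tested, and at rest 0 passed and 0 had an unadjusted p under 0.05. At 3 h the transitional sums were also apart, at 39 to 64.2 normalized CPM in Runx1 c-k/o against 72.8 to 95.9 in Cre-only samples. Of the 4 tested, 0 passed at 3 h and 2 had an unadjusted p under 0.05. The B cell and marginal zone sums overlapped at 3 h. The part of these markers in the levels of Cd80, Cd86, Cd44 and Cd69 was not tested. The 95% intervals of the genes that overlapped were narrow for Icam1 (-0.29 to 0.25) and wide for Icosl (-0.85 to 0.95). This leaves room for a change of Icosl within these limits.

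**Figure D4:**
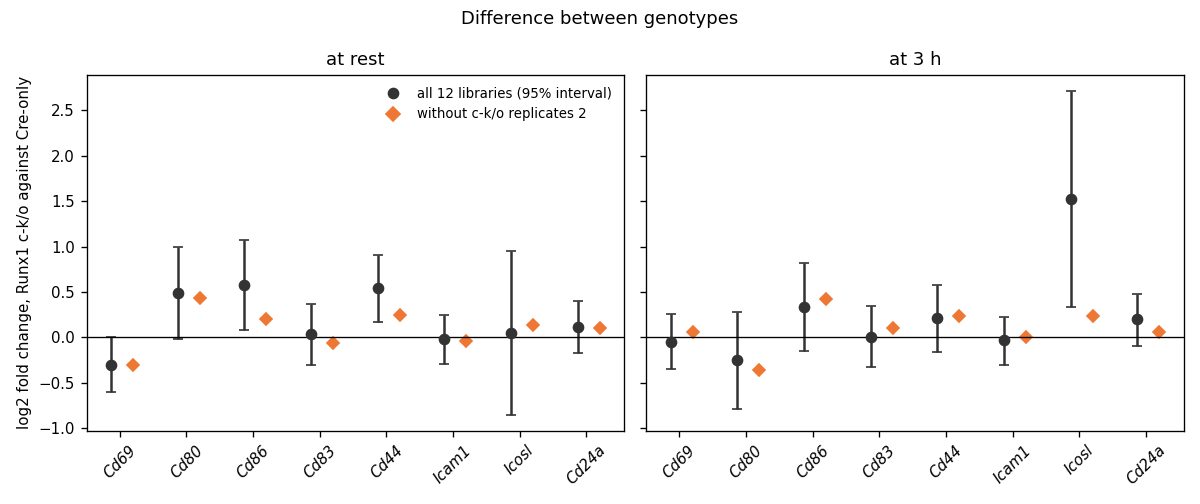
Log2 fold change of Runx1 c-k/o against Cre-only B cells, before activation (left) and at 3 h (right). Black points with 95% intervals of the single gene, unadjusted, come from all 12 libraries, and orange diamonds from the fit without both Runx1 c-k/o libraries numbered 2. At rest Cd86 moves from 0.58 to 0.20 and Cd44 from 0.54 to 0.25, and at 3 h Icosl moves from 1.52 to 0.24.

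At 3 h the test again called 0 of the 8 genes, against 2.77% of all tested genes, and DESeq2's Wald test called 0. At an unadjusted p under 0.05 it was 1 of the 8 genes, Icosl, and 2194 of all 13538. Non-overlapping groups were found in 1 of the 8 genes, Cd44, and in 21.8% of all tested genes. Cd44 was at 846, 839 and 945 normalized CPM in Runx1 c-k/o against 749, 775 and 754 in Cre-only B cells, with a log2 fold change of 0.21 (95% interval -0.16 to 0.58, edgeR adjusted p = 0.534). Icosl had the largest value, 1.52 (95% interval 0.33 to 2.71, edgeR adjusted p = 0.197), with replicate 2 as the high sample at 17.9 normalized CPM, and it was 0.24 without that replicate. Cd86 was at 468, 340 and 369 against 259, 347 and 330, overlapping through replicate 2, with a log2 fold change of 0.33 (95% interval -0.15 to 0.82). The other 5 genes overlapped, with log2 fold changes from -0.25 for Cd80 to 0.20 for Cd24a. Among these the 95% interval was narrowest for Icam1 (-0.30 to 0.23) and widest for Cd80 (-0.79 to 0.28).

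The other genes of the same pathways were counted over lists chosen with earlier results of these data known. Over all tested genes 38.6% rose and 36.4% fell on activation in Cre-only B cells, 37.7% and 36.6% in Runx1 c-k/o B cells. Of 12 early response genes of B cell activation, 8 rose and 3 fell in Cre-only B cells, 7 and 3 in Runx1 c-k/o B cells. Egr2, a transcription factor induced by BCR signals, rose from 42.4, 46.6 and 44.6 to 624, 622 and 626 normalized CPM in Cre-only B cells (edgeR adjusted p = 1.04e-07). Before activation it was already higher in the c-k/o, at 74.6, 170 and 81.2, with replicate 2 the highest (log2 fold change 1.29, edgeR adjusted p = 0.0222, and 0.81 without both libraries numbered 2, edgeR adjusted p = 0.0018), and this call held in 11 of 15 alternatives. Of the further B7 and CD28 family genes and their checkpoint relatives, 10 of 11 were tested, and on activation 3 rose and 5 fell in each genotype. In Cre-only B cells Btla, an inhibitory receptor of the CD28 family, fell with a log2 fold change of -1.65, Cd274, which encodes PD-L1, with -1.50, and Ctla4 with -2.51 (edgeR adjusted p between 4.24e-08 and 1.23e-07). Pdcd1lg2, which encodes PD-L2, rose with 1.16 in Cre-only B cells (edgeR adjusted p = 7.66e-06). In Runx1 c-k/o B cells Pdcd1lg2 rose with 1.94 (edgeR adjusted p = 3.02e-07), and its interaction of 0.78 did not pass (edgeR adjusted p = 0.346). Of 12 genes of the TNF family of costimulators, 9 were tested, and 4 rose and 3 fell in Cre-only B cells, 6 and 2 in Runx1 c-k/o B cells. Fas, the death receptor, rose from 4.03 ± 0.623 to 10.6 ± 0.851 normalized CPM (SD, n = 3) in Cre-only B cells, and Tnfrsf9, which encodes 4-1BB, from 0.346 ± 0.038 to 2.5 ± 0.716.

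Of 15 other surface markers of activation, 7 rose and 5 fell in Cre-only B cells and 7 and 6 in Runx1 c-k/o B cells. Tfrc, the transferrin receptor, rose with a log2 fold change of 1.58 in Cre-only B cells (edgeR adjusted p = 6.64e-08), while Cd38 fell with -2.66 and Cd48, a ligand of CD2 and 2B4, with -1.41 (edgeR adjusted p = 4.93e-08 and 4.9e-08). Of 23 adhesion genes, 4 rose and 14 fell in Cre-only B cells, 4 and 16 in Runx1 c-k/o B cells. Pecam1, an adhesion molecule of leukocytes and endothelium, fell from 275 ± 7.75 to 8.62 ± 0.265 normalized CPM (SD, n = 3) in Cre-only B cells. The list of receptors and regulators of the 8 proteins had 17 genes, of which 1 rose in both genotypes, while 12 fell in Cre-only B cells and 13 in the c-k/o. Siglecg, an inhibitory lectin that binds CD24, fell with a log2 fold change of -4.61 and Lgals9, a lectin that binds CD44, with -2.05 in Cre-only B cells (edgeR adjusted p = 9.3e-08 and 1.66e-08).

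Between genotypes, surface genes beside the 8 did pass. Over all tested genes 1.49% passed at rest and 2.77% at 3 h. The lists were chosen with earlier results of these data known, so their counts cannot show an excess over these shares. At rest the calls were 2 of 10 genes of the B7 and CD28 list, 1 of 15 surface markers and 1 of 12 early response genes. The TNF family, adhesion and partner lists had 0 calls at rest by edgeR, with 0, 5 and 4 genes at an unadjusted p under 0.05 and 0, 1 and 1 called by DESeq2. At 3 h the calls were 2 of 10 B7 and CD28 genes, 4 of 15 surface markers, 2 of 12 early response genes, 1 of 23 adhesion genes and 1 of 17 partners. The TNF family list again had 0 by edgeR and by DESeq2, with 4 of 9 genes at an unadjusted p under 0.05. Over all 13538 tested genes, 1496 had an unadjusted p under 0.05 at rest and 2194 at 3 h. Of the B7 and CD28 list, 2 genes were lower in Runx1 c-k/o B cells at both times, Pdcd1lg2 and Btla. Pdcd1lg2 was at 3.51, 4.52 and 3.32 normalized CPM against 8.29, 10.2 and 11.5 in Cre-only B cells at rest, well apart, with a log2 fold change of -1.40 (edgeR adjusted p = 0.000757). Btla was at 511, 410 and 495 against 722, 741 and 719, likewise apart, with -0.62 (edgeR adjusted p = 0.00829), and -0.53 without both libraries numbered 2. At 3 h the differences were -0.62 for Pdcd1lg2 (edgeR adjusted p = 0.0301) and -0.55 for Btla (edgeR adjusted p = 0.0109), and without both libraries numbered 2 Pdcd1lg2 no longer passed (-0.56, edgeR adjusted p = 0.0519). Cd200, an inhibitory ligand for myeloid cells on the list of surface markers, was higher at both times. It was at 83.1, 75.6 and 78.6 against 33, 34.2 and 37.7 at rest, without overlap and with close replicates. That was a log2 fold change of 1.18 (edgeR adjusted p = 0.000184). At 3 h it was at 59.2, 47.9 and 60 against 15.5, 14.8 and 17.6, apart again (edgeR adjusted p = 6.85e-06). Without both libraries numbered 2 the log2 fold change was 1.21 at rest and 1.90 at 3 h. Cd47, the ligand of the phagocyte receptor SIRPα, was the gene of these lists whose change on activation differed between genotypes, with an interaction of 0.95 (edgeR adjusted p = 0.0116) that passed in 17 of 21 alternatives and was 1.01 without both libraries numbered 2. It fell from 189, 194 and 181 to 64.4, 63 and 70.3 normalized CPM in Cre-only B cells and from 225, 219 and 224 to 162, 135 and 154 in the c-k/o. Every Runx1 c-k/o sample was above every Cre-only sample of its time, and the difference passed at 3 h (edgeR adjusted p = 2.6e-05) but not at rest (edgeR adjusted p = 0.27).

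The other called genes of these lists differed at 3 h. Sema7a, a semaphorin, was at 93.3, 86 and 97.5 normalized CPM in Runx1 c-k/o against 66.7, 63.4 and 64.8 in Cre-only B cells, with a log2 fold change of 0.51 (edgeR adjusted p = 0.00683). Sema4d, a semaphorin that binds CD72, was lower, at 57.2, 84.1 and 75.6 against 122, 112 and 113, with -0.68 (edgeR adjusted p = 0.0236). Cd81, a tetraspanin, was at 84.8, 83.5 and 63.6 against 46.4, 44 and 48.3, with 0.74 (edgeR adjusted p = 0.00653). These 3 genes did not overlap between genotypes. Lgals9 was at 46.6, 57.3 and 49.6 against 29.8, 28.5 and 33.6, also apart, with 0.74 (edgeR adjusted p = 0.0018). The early response genes Junb and Nr4a1 were higher by 0.84 and 0.69 on the log2 scale (edgeR adjusted p = 0.0189 and 0.0303). Both had fallen from high resting levels. Mean Junb went from 1082.0 to 163 normalized CPM in Cre-only B cells, and from 1198.7 to 291 in the c-k/o. Mean Nr4a1 went from 1175.2 to 467 in the controls, and from 1173.0 to 754 in the c-k/o. Their interactions, 0.69 for each gene, did not pass (edgeR adjusted p = 0.697 for Junb and 0.586 for Nr4a1). Between genotypes at 3 h, Sema7a, Cd81 and Lgals9 passed in all 15 alternatives, Sema4d in 9, Junb in 11 and Nr4a1 in 10.

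Among themselves the 8 genes fell into those that rose together and those that fell together, which describes 12 libraries that share the split into rest and 3 h. Over these 12 libraries Pearson's r of log2 normalized CPM was 0.99 between Cd86 and Cd44, 0.97 between Cd86 and Cd83, 0.98 between Icosl and Cd24a and -0.95 between Cd44 and Icosl. Cd69 was nearest to Cd44, inversely, with -0.63, and Cd80 nearest to Icam1 with -0.67. Of all tested genes the most like Cd86 were Mrpl17 (0.998), Slc15a3 and Psat1 (both 0.997), and the most like Cd44 were Mapkapk3, Rragd and Pkib (all 0.998). Cd83 was closest to Tcp1 and Rnf121 (both 0.995) and Lsg1 (0.994), and Icam1 to Gm17703 (0.979), Gm9958 (0.976) and Rad17 (0.974). Icosl was closest to Ceacam1 (0.999), Pecam1 (0.998) and Maf (0.997), and Cd24a to 1110003E01Rik (0.999), Lsp1 and Pstpip1 (both 0.998). Cd69 was closest to Terf1 (0.935), Ppp1r2 (0.934) and Rras2 (0.931), and Cd80 to Mblac2 (0.940), Ms4a14 (0.895) and Pcyox1 (0.883), values lower than for the 6 genes with a change above the spread of replicates in both genotypes.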

How the data were processed

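RNA from splenic B cells was sequenced in 12 samples, 3 in each of 4 groups. The authors prepared stranded libraries of poly(A) RNA, aligned their reads to mouse genome mm9 (NCBIM37) with TopHat2 2.0.11 after CASAVA 1.8.4 (versions per the submitters' processing notes), counted them on Ensembl genes with featureCounts, and deposited raw counts per gene without normalization. The strand setting of the counting is not given in the sources used here, and the table holds no spike-in counts. Positions, exon lengths and overlaps are from the GENCODE annotation of mm9. Promoter windows are from RefSeq.

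Counts were read with Python 3.11.15 and tested in R 4.3.3 with edgeR 4.0.16: filterByExpr (minimum count 10), TMM, and a robust quasi-likelihood fit of all 12 samples with 1 term per group and no covariate. The threshold was an adjusted p of 0.05 over 13538 genes. The 95% intervals are from the standard error and the t distribution with the fit's degrees of freedom. Alternatives were DESeq2 1.42.0, its size factors, 1 RUVs factor of unwanted variation, other filters on low counts, a block for the replicate number, a fit of just the groups compared, and each sample left out. The replicate numbers may pair the Cre-only samples: deviations from the group means of same-numbered resting and 3-h samples correlated at 0.275, 0.176 and 0.144 over genes. Differently numbered Cre-only samples correlated at -0.192 to 0.00479. In the Runx1 c-k/o each resting sample correlated highest with a 3-h sample of another number. The values were 0.268 for resting 1 with 3-h 3, 0.477 for resting 2 with 3-h 1 and 0.309 for resting 3 with 3-h 2. Correlations of this size thus also arise without a shared number, and whether these samples pair under other numbers was not tested. A pairing of the Cre-only samples is inferred from this check alone, as the labels give the numbers without saying what they share.

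The 8 genes and all lists were chosen with earlier results of these data known, the motifs after the promoters had been read, and the fit without both Runx1 c-k/o libraries numbered 2 after seeing the data. Listed genes were named by a rule: in each comparison, up to 4 per list with the smallest adjusted p, and for each of the 8 genes the 3 most correlated genes. The scripts were tested on simulated counts. An exact permutation test of 3 against 3 cannot go below p = 0.1. The sources used here name no batch.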

Additional observations from a re-analysis of the deposited data

How the results depend on the processing

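Calls in the comparisons of genotypes depended on the factor of unwanted variation. With 1 RUVs factor, 1 of the 8 genes was called at rest in edgeR (Cd69) and 2 in DESeq2 (Cd69 and Cd44, the latter with a log2 fold change of 0.47), and at 3 h 1 was called in DESeq2 (Icosl, 1.64). In all other alternatives both counts were 0, and the interaction count was 0 in all 21. On activation the count stayed between 6 and 7 in Cre-only B cells and between 6 and 8 in Runx1 c-k/o B cells. Cd86, Cd83, Cd44, Icosl and Cd24a kept their direction and their call in both genotypes under all alternatives run. Icam1 lost its call only with a RUVs factor (0.25 and 0.26 in DESeq2), and so did Cd80 in Runx1 c-k/o B cells. Cd69 in Cre-only B cells was called in 9 of 15 alternatives, at -0.93 to -0.30. The cause was not tested.

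The replicate block gave 6 called genes on activation in Cre-only B cells, 7 for the Runx1 c-k/o, and 0 in the comparisons of genotypes, and beside Cd69 in Cre-only B cells it changed no call. Same-numbered samples showed no shared pairing in Runx1 c-k/o B cells, with correlations of -0.254, -0.264 and 0.254, or between genotypes, with -0.0665 to 0.068. A block by the higher c-k/o correlations between differing numbers was not run. Depth limits Cd80, on 25 to 72 counts per library, and Icosl at 3 h, on 43 to 273. The 3 replicates per group limit the rest, and no setting scales the counts to RNA per cell.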
